A study of Mus musculus with 6 samples.

Results

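A cassette exon is an exon that a cell either includes whole or skips whole. The cassette exons described here are those whose length is not a multiple of 3, among the exons that were listed as differently spliced after Sfpq was knocked down. They were chosen by length alone, as end minus start in the deposited lists, and identical exons were counted once. This gave 169 frame-shifting exons among 439 distinct cassette exons (38.5%), in 162 genes. The other 270 have a length that is a multiple of 3 and are called frame-keeping.

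The cells were P19 cells, a mouse embryonal carcinoma line with properties of stem cells. RNA was sequenced from 3 samples with SFPQ knockdown by small interfering RNA and from 3 control samples, which the study describes as transfected with a control siRNA. The splicing differences were deposited as 3 lists, 1 for each replicate number, called lists 1, 2 and 3 here. Frame-shifting exons made up 67 of the 193 cassette exons of list 1 (34.7%), 70 of the 178 of list 2 (39.3%) and 71 of the 173 of list 3 (41%). The lists give the chromosome, start, end and type of each event. They hold no read counts, no inclusion level and no direction, so it cannot be said whether an exon was skipped more or included more after the knockdown, and the depth behind each event is unknown. The level of Sfpq in the cells cannot be checked from them. Agreement between lists stands in for replicate error in what follows. No source used here says that samples of a group were grown separately, and the agreement may therefore be technical.

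A ribosome reads coding sequence in steps of 3 bases from the start codon. Skipping or including a coding exon of any other length moves all later codons into another frame, which usually brings a stop codon soon after. When that stop lies well upstream of the last exon-exon junction, the exon junction complexes left downstream of it mark the mRNA for nonsense-mediated decay (NMD). Exons in the 5′UTR can have any length without touching the protein, and an exon with the usual stop codon can change the end of the protein without decay. Sfpq binds RNA in the nucleus, is a component of paraspeckles and was first described as a splicing factor.

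Most of the exons were short. The sequences below come from recurring members that lie wholly within coding sequence or that bring a stop codon with them, because these show how the frame is lost. Those of Rpl17, Setbp1, Gatad2a, H13, Add1 and Tut7 are not printed, and Pym1 is in the first set only. They were taken from the GENCODE M21 transcripts (GRCm38, the assembly of mm10) and are written from 5′ to 3′. In the first set, each exon is printed whole.
Kctd3, chr1:189001343-189001388, minus strand, 46 nt: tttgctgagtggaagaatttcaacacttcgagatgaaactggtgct
Bst2, chr8:71535786-71535825, minus strand, 40 nt: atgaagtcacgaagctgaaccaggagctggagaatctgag
Gnb1l, chr16:18545117-18545213, plus strand, 97 nt: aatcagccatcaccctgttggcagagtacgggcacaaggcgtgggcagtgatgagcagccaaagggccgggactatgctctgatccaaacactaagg
Idnk, chr13:58162838-58162881, plus strand, 44 nt: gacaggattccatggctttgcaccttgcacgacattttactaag
Pcbp2, chr15:102489752-102489807, plus strand, 56 nt: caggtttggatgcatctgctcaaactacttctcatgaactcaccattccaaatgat
Ptbp3, chr4:59546149-59546182, minus strand, 34 nt: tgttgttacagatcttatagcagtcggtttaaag
Pym1, chr10:128750283-128750337, plus strand, 55 nt: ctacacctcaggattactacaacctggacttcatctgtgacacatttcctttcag

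The second set shows what the same mRNAs read when the exon is left out. Each line starts in the exon before, crosses the new junction and ends at the first stop codon in frame, which is in capitals. The bases from the exon before number 20 for Kctd3, 19 for Bst2, 20 for Gnb1l, 18 for Idnk, 19 for Pcbp2 and 20 for Ptbp3. All but the Idnk stop lie more than 50 nt before the last junction.
Kctd3 without its exon: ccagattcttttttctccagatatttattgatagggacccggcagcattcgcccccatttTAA
Bst2 without its exon: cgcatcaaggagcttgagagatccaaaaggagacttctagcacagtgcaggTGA
Gnb1l without its exon: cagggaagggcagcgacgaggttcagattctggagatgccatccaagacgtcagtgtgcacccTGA
Idnk without its exon: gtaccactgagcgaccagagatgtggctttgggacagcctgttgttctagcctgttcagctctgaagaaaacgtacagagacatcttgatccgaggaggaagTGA
Pcbp2 without its exon: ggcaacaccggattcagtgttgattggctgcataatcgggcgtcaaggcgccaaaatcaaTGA
Ptbp3 without its exon: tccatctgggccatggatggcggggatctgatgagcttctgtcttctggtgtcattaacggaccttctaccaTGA

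The third set holds exons that bring their own stop codon when they are put in. Each is printed from its first base to the first stop in the host's frame, in capitals.
Fbxl4, chr4:22433146-22433258, plus strand, first 47 of 113 nt: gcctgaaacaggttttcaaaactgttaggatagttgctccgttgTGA
Hdac5, chr11:102213925-102214036, minus strand, first 101 of 112 nt: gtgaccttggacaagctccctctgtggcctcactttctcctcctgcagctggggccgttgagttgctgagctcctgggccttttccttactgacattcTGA
Otulinl, chr15:27657176-27657263, minus strand, first 66 of 88 nt: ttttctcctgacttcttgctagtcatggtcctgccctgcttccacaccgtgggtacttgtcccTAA

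In length, the 169 exons had a median of 97 nt with quartiles of 67 and 127 nt, against a median of 63 nt for the frame-keeping exons. The shortest had 16 nt, in Gatad2a, which encodes a subunit of the NuRD chromatin remodelling complex. The longest had 3448 nt, in Setbp1, which encodes a nuclear partner of the SET protein, and the next had 302 nt, in Nprl3, whose product belongs to the GATOR1 complex upstream of mTORC1. Division by 3 left 1 base in 94 exons and 2 bases in 75. Both ends matched an annotated exon for 164 exons and 1 end matched for 4, those of Gatad2a, Gprasp2 and Timm9 and the shorter one of Zdbf2. The remaining exon, of 49 nt in Camta1 (list 2), overlapped no annotated exon. Gprasp2, Timm9 and Camta1 were named after their values were seen.

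The exons fell into 5 kinds by their place in the annotated protein-coding transcripts of their gene. Wholly coding exons numbered 59, exons with a start codon 9, exons with a stop codon 14 and other exons touching a 5′UTR 54. The remaining 33 were part of no protein-coding transcript of the gene. An exon that was wholly coding in some transcript was counted there first. Lists 1, 2 and 3 held similar numbers of wholly coding exons (24, 22 and 25) and 5′UTR exons (24, 23 and 22). They were less alike for exons with a stop codon (10, 1 and 7) and for exons of no protein-coding transcript (6, 18 and 12). The median lengths of the kinds ran from 73.5 nt for exons with a stop codon to 136 nt for exons with a start codon, as the plot of lengths by kind shows.

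**Figure D1:**
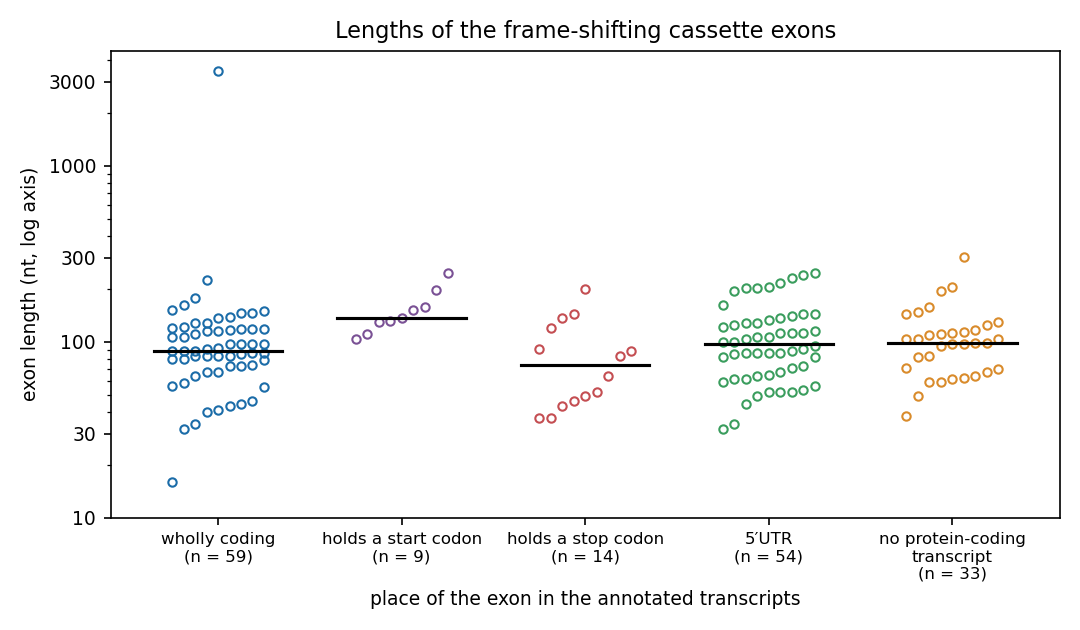
Lengths of the 169 frame-shifting cassette exons on a log axis (nt), split by their place in the annotated transcripts, with 1 circle per exon and a line at each median. Of the exons, 31 are shorter than 60 nt and 12 longer than 200 nt, and the 3448-nt exon of Setbp1 stands alone.

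The first comparison asked how often the same exon was listed again in another replicate. Of the 169 frame-shifting exons, 33 stood in more than 1 list (19.5%, 95% Wilson interval 14.3% to 26.2%). The background over all 439 cassette exons was 20.3% (89 exons), and among frame-keeping exons it was 56 of 270 (20.7%, 16.3% to 26%). The difference of -1.21 percentage points was not detectable (two-sided Fisher's exact test, odds ratio 0.927, p = 0.808, and 0.808 after Benjamini-Hochberg adjustment over 6 comparisons). Its sign changed with the lists used. Without list 1 it was 0.806 points and without list 3 it was 0.333 points. Most frame-shifting exons, 136 of them, were seen in 1 list. Lists 1 and 2 shared 15 (22.4% of list 1 and 21.4% of list 2), lists 1 and 3 shared 13 (19.4% and 18.3%), and lists 2 and 3 shared 17 (24.3% and 23.9%).

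In all, 6 exons in 5 genes stood in lists 1, 2 and 3. Kctd3, which encodes a protein with a BTB domain, had its 46-nt exon 3 of 18 listed. Rpl17, a protein of the large ribosomal subunit, had its 41-nt exon 3 of 7 listed, and this entry is uncertain, since processed copies of the gene elsewhere in the genome are almost identical to it. Both exons are coding. N4bp2 had an 89-nt exon and Tmbim6, the BAX inhibitor of the endoplasmic reticulum, a 215-nt exon, and these lie in the 5′UTR. Zdbf2, an imprinted gene, had a 136-nt exon (chr1:63290647-63290782) and a 103-nt exon (chr1:63290680-63290782) that share their end, so they are forms of 1 exon with different starts and are not separate observations. They were the only pair of frame-shifting exons that overlapped each other.

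**Figure D2:**
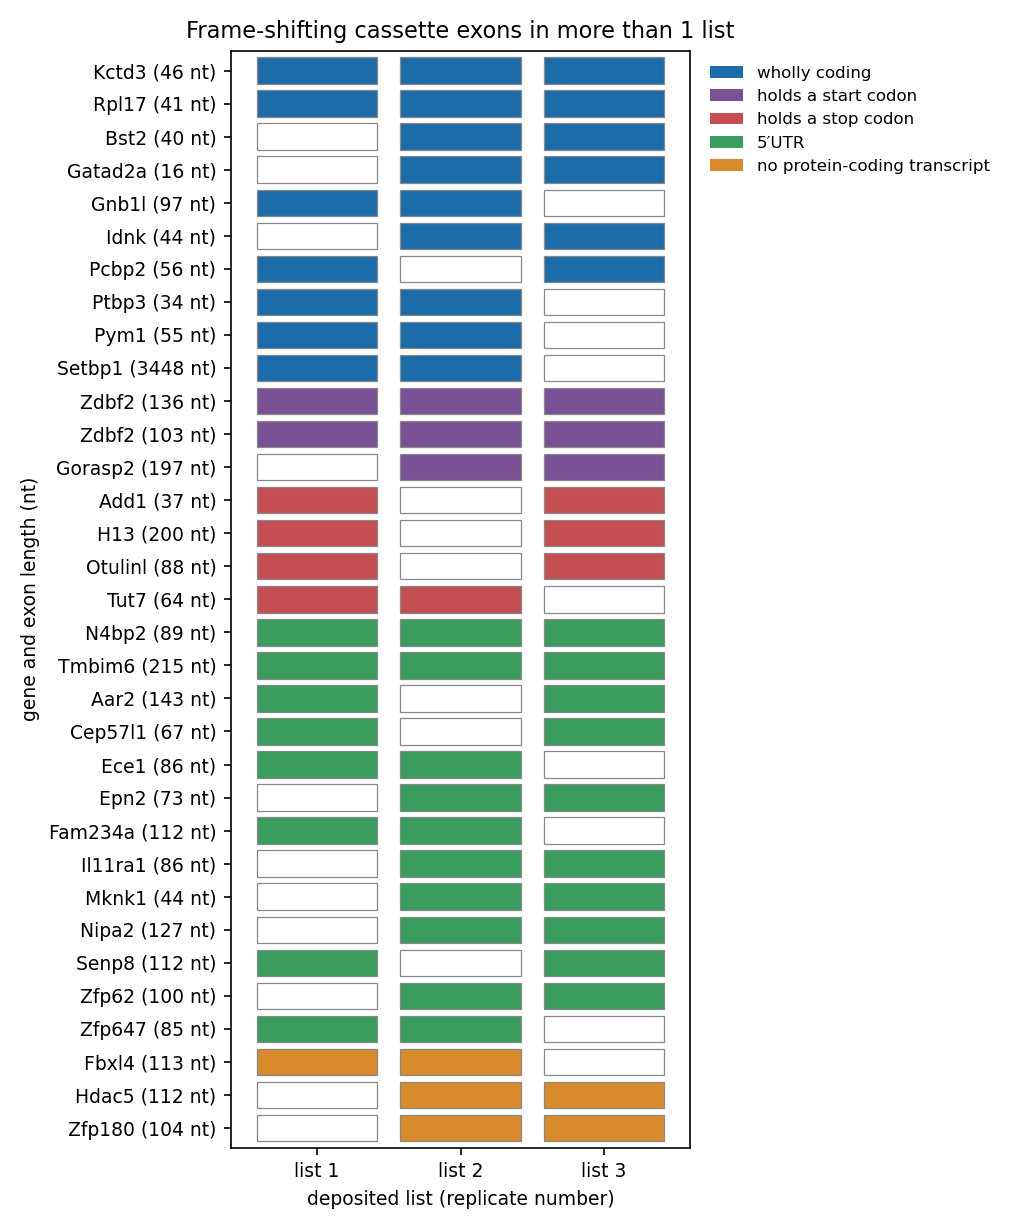
The 33 frame-shifting cassette exons found in more than 1 list, 1 row per exon with its gene and length (nt), 1 column per list. A filled cell means that the exon was in that list, the colour gives its place in the annotated transcripts, and 6 exons have all cells filled.

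A further 27 exons stood in exactly 2 lists. The coding ones lay in Bst2, Gatad2a and Idnk (lists 2 and 3), Pcbp2 (lists 1 and 3), and Gnb1l, Ptbp3, Pym1 and Setbp1 (lists 1 and 2). Bst2 encodes tetherin, which holds enveloped viruses at the cell surface. Idnk encodes gluconokinase, Pcbp2 a poly(C)-binding protein, Ptbp3 a relative of the polypyrimidine tract-binding protein, and Pym1 a partner of the exon junction complex. Exons with a stop codon were those of Add1, H13 and Otulinl (lists 1 and 3) and Tut7 (lists 1 and 2). Gorasp2, which encodes a Golgi stacking protein, had a 197-nt exon with a start codon in lists 2 and 3. Exons in no protein-coding transcript were those of Fbxl4 (lists 1 and 2), Hdac5 and Zfp180 (lists 2 and 3). The other 11 lay in the 5′UTR and are described with it.

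By kind, 3 of 9 exons with a start codon recurred (33.3%), 4 of 14 with a stop codon (28.6%), 13 of 54 in the 5′UTR (24.1%), 10 of 59 wholly coding (16.9%) and 3 of 33 in no protein-coding transcript (9.09%). The start-codon count holds both Zdbf2 forms, which are not separate observations. These shares were not tested against each other.

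The next comparisons asked where in the mRNA the exons lie, relative to the frame-keeping ones. Only 59 of the 169 frame-shifting exons were wholly coding (34.9%, 28.1% to 42.4%), against 214 of the 270 frame-keeping exons (79.3%, 74% to 83.7%). The difference was -44.3 percentage points (two-sided Fisher's exact test, odds ratio 0.14, adjusted p = 6.75e-20). Each list gave it, with 35.8% of frame-shifting against 75.4% of frame-keeping exons in list 1, 31.4% against 79.6% in list 2 and 35.2% against 85.3% in list 3. The ranges over the lists did not overlap, but the lists share exons and are not independent repeats. The exons with a 5′UTR part went the other way. They were 66 of 169 frame-shifting exons (39.1%, 32% to 46.6%), against 33 of 270 frame-keeping exons (12.2%, 8.84% to 16.7%), a difference of 26.8 points (Fisher's exact test, odds ratio 4.6, adjusted p = 5.50e-10). By list the shares were 43.3% against 16.7%, 41.4% against 13%, and 39.4% against 3.92%. A start codon was held by 9 frame-shifting exons (5.33%, 2.83% to 9.81%) and by 6 frame-keeping exons (2.22%, 1.02% to 4.76%), which did not pass the test (Fisher's exact test, odds ratio 2.48, adjusted p = 0.126). Exons are not independent replicates of the knockdown, and these p-values cover the counting of exons only. The groups were chosen by length, and the annotation labels transcripts as coding partly from their reading frame. The wholly coding share is therefore tied in part to that choice. An exon of no protein-coding transcript could count neither as wholly coding nor as touching a 5′UTR, so these shares are not separate from each other.

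Membership of transcripts that do not encode the full protein also differed. An annotated NMD transcript held 52 of the 169 frame-shifting exons (30.8%, 24.3% to 38.1%), against 37 of the 270 frame-keeping exons (13.7%, 10.1% to 18.3%; Fisher's exact test, odds ratio 2.8, adjusted p = 4.11e-05). By list it was 23.9% against 13.5%, 30% against 14.8% and 29.6% against 14.7%. No protein-coding transcript held 33 frame-shifting exons (19.5%, 14.3% to 26.2%), against 12 frame-keeping exons (4.44%, 2.56% to 7.61%; Fisher's exact test, odds ratio 5.22, adjusted p = 2.07e-06). In list 1 this was 8.96% against 3.97%, in list 2 25.7% against 4.63% and in list 3 16.9% against 4.9%. The annotators assign the NMD label from the reading frame of the transcript, so these 2 shares are tied to exon length by construction and are not a measurement of decay in P19 cells.

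**Figure D3:**
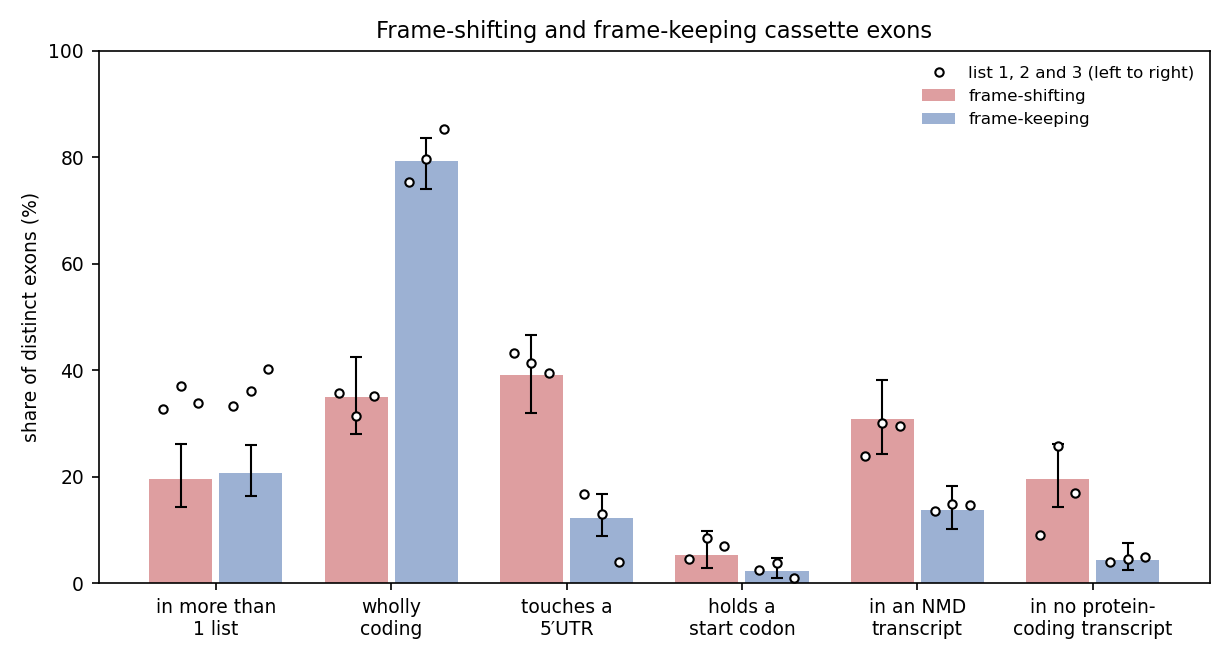
Shares of distinct exons (%) for the 6 comparisons, frame-shifting (red, left) and frame-keeping (blue, right). Bars are all distinct exons with 95% Wilson intervals, and circles are the separate lists. In the leftmost pair the circles lie above the bars because an exon shared by lists counts in each of them. The wholly coding pair shows the widest gap, 34.9% against 79.3%.

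For the 59 wholly coding exons, the reading frame without the exon was read in the best supported transcript that holds it. This was possible for 58, all but the 16-nt entry of Gatad2a, which matched an annotated exon at 1 end only. In 41 of the 59 (69.5%) the frame ran into a stop codon more than 50 nt before the last exon junction, the usual rule for NMD. Of these 41, list 1 held 19, list 2 held 14 and list 3 held 17, and 7 were in more than 1 list. The shift came after a median of 38.2% of the protein (0.363% to 77.4%), and the new frame added a median of 11 residues before the stop (0 to 79), with 10 or fewer in 20 exons. The stop lay a median of 702 nt before the last junction (74 to 6125 nt). In 27 of the 41 the shift came before 50% of the protein. These are readings of the annotation and no decay was measured. The frame shift is fixed by the choice of exons by length, and the early stops follow largely from it. No share for unlisted frame-shifting coding exons was computed to set beside the 69.5%.

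Among the recurring exons, those of Kctd3, Rpl17, Bst2, Gnb1l, Pcbp2, Ptbp3 and Setbp1 met the rule. Kctd3 without its exon kept 45 of 815 residues (5.52%), added 14 and stopped 1663 nt before the last junction, at the TAA printed above. Rpl17 kept 13 of 184 residues and met a stop codon at the junction itself, with 0 new residues. These are small fractions of the protein, whereas Bst2 kept 125 of 172 residues (72.7%), added 11 and stopped 86 nt before the last junction, and Pcbp2 kept 262 of 349 residues (75.1%) and stopped 126 nt before it. Gnb1l, which encodes a WD-repeat protein, kept 136 of 357 residues (38.1%), and 5 annotated protein-coding transcripts skip its exon. Setbp1 lost its exon 4 of 6, which holds most of its 1582 codons, kept 173 residues (10.9%) and stopped after 6 new ones. In Ptbp3 the 34-nt exon 2 of 15 comes so early that only 2 of 551 residues were kept, and 18 followed. Here 4 annotated protein-coding transcripts skip the exon, so this gene has a skipped form that the annotators regard as coding, and the reading from the usual start codon does not describe it.

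In 17 of the 59 exons the stop came less than 50 nt before the last junction or beyond it. The shift lay later in the protein there, at a median of 69.8% (2.67% to 92.9%). Idnk, with its 44-nt exon 4 of 5, kept 56 of 184 residues and added 28, and its stop lay in the last exon, 87 nt past the junction. Pym1 was one of 2 genes whose frame became longer on skipping. Its annotated transcript with the 55-nt exon encodes 62 residues, and without the exon the frame ran to 202 residues. Ccser2, named after its values were seen, was the other, with 1038 residues without the exon against 833 with it. For these genes inclusion of the exon, and not skipping, gives the shorter protein.

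Among wholly coding exons in 1 list, those whose skipping shifts the frame nearest to the start of the protein were looked at one by one. Dyrk2, which encodes a protein kinase, kept 2.67% of its residues without the exon (list 2), and Arhgef25 5.34% (list 3). Dld, the dihydrolipoamide dehydrogenase subunit of the pyruvate dehydrogenase complex, kept 7.66% (list 3), the orphan receptor gene Gpr19 7.78% (list 1) and the semaphorin gene Sema6c 8.38% (list 3). Atg7, the E1-like enzyme of autophagy, kept 9.6% (list 2), Flot2, a flotillin of membrane rafts, 10% (list 1), and the chromodomain gene Chd6 11.9% (list 1). Zfp560, a zinc finger gene, kept 14.2% (list 3). Annotated protein-coding transcripts skip the exons of Gpr19 (6 transcripts) and Flot2 (1 transcript). These genes thus have skipped forms that the annotators regard as coding. The stops of Dyrk2, Gpr19 and Zfp560 lay 14, 20 and 8 nt past the last junction, and those of the other 6 genes named here met the rule, the nearest 1022 nt before it in Flot2 and the farthest 6125 nt before it in Chd6.

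**Figure D4:**
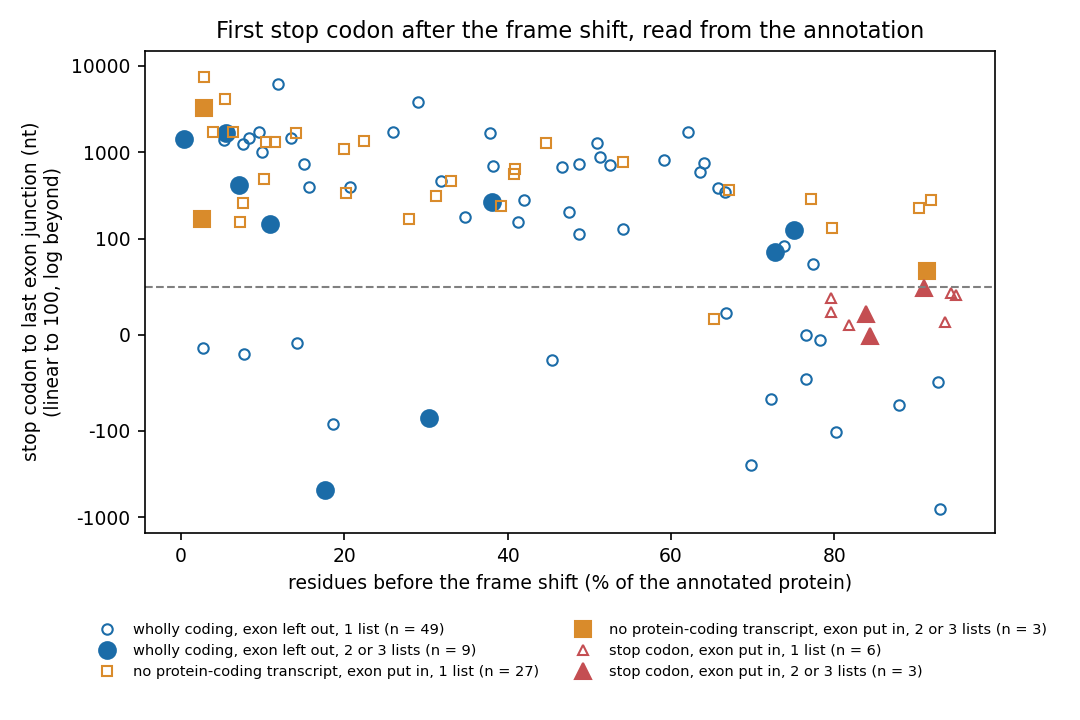
Residues before the frame shift (% of the annotated protein) against the distance from the first stop codon to the last exon junction (nt, linear to 100 and log beyond, negative where the stop lies past the junction). Circles are wholly coding exons left out, squares exons of no protein-coding transcript put in, triangles exons with a stop codon put in, and filled symbols were in 2 or 3 lists. Points above the dashed line at 50 nt meet the decay rule: 41 circles, 29 squares and no triangle. The numbers of squares and triangles follow largely from how the annotation labels transcripts. The number of circles follows largely from the choice of exons by length, and no share for unlisted exons was computed.

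The annotation was then searched for transcripts that already skip each wholly coding exon, that is, whose intron spans it. For 35 of the 59 frame-shifting exons (59.3%, 46.6% to 70.9%) there was none, against 23 of the 214 frame-keeping ones (10.7%, 7.27% to 15.6%). By list the shares with none were 54.2% against 10.5%, 54.5% against 10.5% and 68% against 5.75%. A protein-coding transcript skipped 15 of the 59 (25.4%, 16.1% to 37.8%), against 187 of the 214 (87.4%, 82.3% to 91.2%). The frame-shifting coding exons were mostly listed as cassette exons where the annotation knows them only as included, and the frame-keeping ones mostly where it knows both forms. This count was made after the data had been seen and was not tested. Skipping a frame-keeping exon leaves the frame intact, and transcripts are labelled as coding partly from their frame. The share with a protein-coding skipping form is therefore tied in part to exon length. Of the 35 exons with no skipping form, 29 met the decay rule when left out. Of the 15 with a protein-coding skipping form, 6 met it, and among these were Ptbp3 and Gnb1l. Exons with no skipping form recurred less often. In more than 1 list were 5 of the 35 (14.3%), those of Kctd3, Rpl17, Bst2, Pcbp2 and Setbp1. With a protein-coding skipping form, 5 of the 15 recurred (33.3%). Among frame-keeping exons the shares were 1 of 23 (4.35%) and 44 of 187 (23.5%). These shares were not tested. For 4 exons, in Ankrd24, Catsperg1, Gabbr1 and Sema6c, the annotated skipping transcript was an NMD transcript. All 4 met the rule, which the NMD label largely fixes. The first 3 of these 4 were named after their values were seen.

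**Figure D5:**
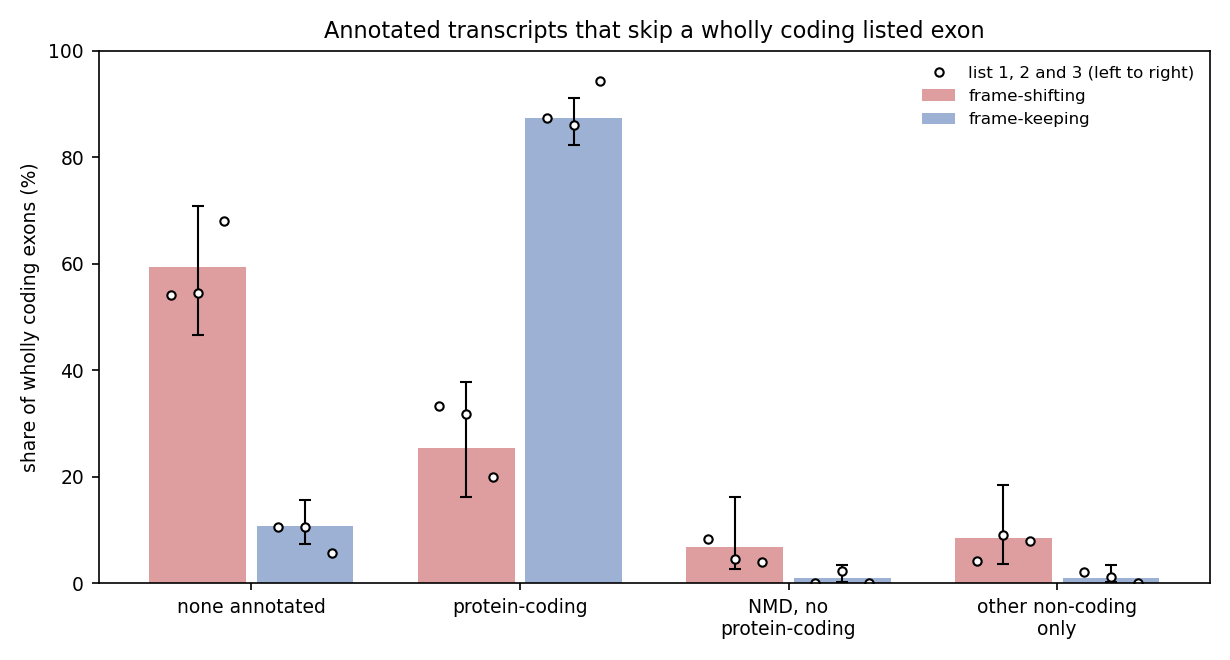
Annotated transcripts that skip the wholly coding exons, as shares (%) of the 59 frame-shifting (red, left) and 214 frame-keeping exons (blue, right). Bars have 95% Wilson intervals and circles are lists 1, 2 and 3. No skipping transcript is annotated for 59.3% of frame-shifting and 10.7% of frame-keeping exons.

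The 33 exons in no protein-coding transcript are the mirror image, since here inclusion breaks the frame. A protein-coding transcript skipped every one of them, and an NMD transcript held 27. All lie in protein-coding genes, so a coding transcript that skips the exon is close to what this kind requires. The NMD label is assigned from the reading frame. For those 27, a stop that meets the decay rule is therefore largely fixed by the annotation. In 29 of the 33 (87.9%) putting the exon into the coding transcript gave a stop that met the decay rule, and in 26 of these the stop lay wholly or partly within the exon itself. List 1 held 5 of the 29, list 2 held 15 and list 3 held 12. The shift came after a median of 22.4% of the protein, with 14 residues before the stop. In the remaining 4, 1 exon, in Trp53inp1, gave a stop 16 nt before the last junction, and 3 could not be read (Trp53inp1 was named after its values were seen).

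Hdac5, a class IIa histone deacetylase, had a 112-nt exon whose inclusion left 32 of 1115 residues and added 33 up to the TGA printed above, 3222 nt before the last junction. Fbxl4, an F-box protein of mitochondria, had a 113-nt exon far downstream, after 567 of 621 residues (91.3%), and its stop lay 66 nt before the last junction. The 104-nt exon of Zfp180 shifted the frame after 17 of 655 residues, and the stop came 42 residues on, beyond the exon. These 3 were in 2 lists each. The longest exons of this kind were the 302-nt exon of Nprl3 (list 2), the 205-nt exon of Abl1, the tyrosine kinase gene (list 2), and the 194-nt exon of the G-protein gene Gnb5 (list 3). Pla2g12a (158 nt, list 2), Krit1 (148 nt, list 2), Cenpl (143 nt, list 1), Mmp16 (130 nt, list 3), Jade3 (125 nt, list 1), Il7 (116 nt, list 2) and Fbxl4 made up the 10. In all 10 the stop lay wholly or partly within the exon and met the rule. In Krit1 it was the first codon after the shift, with 0 residues added, and in Nprl3 it came after 49.

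Exons with a stop codon, where inclusion could be read, gave another end to the protein without meeting the decay rule. This kind was taken from stop codons of transcripts annotated as protein-coding. A stop that met the decay rule would usually have brought an NMD label, so this outcome and the place of the exons follow largely from the choice. All 14 were the last exon but 1 of their transcript, and 11 were skipped by another protein-coding transcript. Inclusion could be read for 9, and in all 9 the stop lay wholly or, in Add1, partly in the exon, and it ended from 1 nt past the last junction to 49 nt before it. H13, the signal peptide peptidase, kept 344 of 378 residues and gained 50 with its 200-nt exon. Otulinl, an OTULIN-related protein, kept 296 of 353 and gained 21, ending at the TAA printed above. Add1, which encodes α-adducin of the membrane skeleton, kept 620 of 735 and gained 12 with a 37-nt exon, and the stop spanned the last junction. The 64-nt exon of Tut7, a terminal uridylyltransferase that acts on let-7 precursors, was in lists 1 and 2 and its inclusion could not be read. List 2 held 1 of the 14 exons, that of Tut7, against 10 in list 1 and 7 in list 3.

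The 54 exons of the 5′UTR touch the 5′UTR of at least 1 protein-coding transcript. Bases before the start codon do not set the frame of the protein read from it. Whether these exons change the protein in other transcripts was not tested. In 41 of them the exon was number 2 of its transcript, and 49 were skipped by another protein-coding transcript of the gene. Where the leader (the mRNA before the start codon) could be read, in 49, the exon made up a median of 28.1% of it (4.35% to 74.6%). An ATG triplet lay within 32 of these 49 exons (65.3%), against 17 of 24 frame-keeping 5′UTR exons (70.8%). In 30 of the 32 at least 1 such ATG opened a frame that closed before the main start, in 7 at least 1 ran past it in another frame, and in 0 did it extend the protein. The most ATG triplets in 1 exon were 5, in Pknox1 (247 nt) and Tmem260 (230 nt), both named after their values were seen.

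The 13 recurring 5′UTR exons differed in this respect. The 215-nt exon of Tmbim6 took up most of a leader of 298 nt and held no ATG. The 89-nt exon of N4bp2, in a leader of 560 nt, held 1 ATG, whose frame closed before the main start. Fam234a (112 nt, lists 1 and 2) had 3 such ATG triplets. In Aar2, a factor of U5 snRNP assembly (143 nt, lists 1 and 3), and Mknk1, a kinase of the cap-binding factor eIF4E (44 nt, lists 2 and 3), there were 2 each, all closed before the main start. Epn2, the epsin gene of endocytosis (73 nt), Il11ra1, the interleukin 11 receptor gene (86 nt), Nipa2, a magnesium transporter gene (127 nt), and Zfp62 (100 nt), all in lists 2 and 3, had 1 closed ATG each. Cep57l1 (67 nt, lists 1 and 3) had 1 ATG whose frame did not close before the start codon 3 nt downstream of the exon. Ece1, the endothelin-converting enzyme gene (86 nt, lists 1 and 2), had none. The leaders of Senp8 (112 nt, lists 1 and 3) and Zfp647 (85 nt, lists 1 and 2) were not read. Senp8 encodes the protease that removes NEDD8.

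More than 1 frame-shifting exon was found in 6 genes. Atg7 had 3, a 121-nt 5′UTR exon and a 151-nt exon with a start codon in list 1 and a 118-nt coding exon in list 2. Nfu1, a scaffold gene for iron-sulfur clusters, had coding exons of 136 nt (list 3) and 121 nt (list 1), and the 121-nt exon borders a 3-nt alternative donor event, so those entries may describe 1 splice choice. Senp8 had a 110-nt exon with a start codon (list 3) beside its 5′UTR exon, Mknk1 a second 5′UTR exon of 106 nt (list 3), and Gpr19 a 52-nt 5′UTR exon and a 118-nt coding exon, both in list 1. Zdbf2 has been described above. In 5 genes a frame-shifting and a frame-keeping exon were both listed, in Bcas3, Erc1, Pex2, Ptprs and Zmym5, with each of these exons in 1 list. These 5 genes were named after their values were seen.

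Frame-shifting exons were looked for in groups of genes that act in splicing, decay or the Sfpq pathway. Of 70 splicing regulators, 1 had such an exon, Ptbp3, in lists 1 and 2. None of 19 NMD factors, 37 genes of the microRNA pathway or 19 paraspeckle protein genes in the lists used had one, and these counts of 0 allow shares of up to 16.8%, 9.41% and 16.8% (upper 95% Wilson limits). The microRNA list did not include Tut7, whose frame-shifting exon in lists 1 and 2 is described above. Of 81 ribosomal protein genes 1 had one, the uncertain Rpl17. Of 390 Zfp genes 5 had one (1.28%), Zfp180, Zfp560, Zfp606, Zfp62 and Zfp647, with 1 of them in list 1, 3 in list 2 and 4 in list 3. The interval of that share was 0.549% to 2.97%. Zfp606 had a 64-nt exon of no protein-coding transcript in list 3. Over all 20620 multi-exon protein-coding genes the share was 0.786%. That background was not limited to genes expressed in P19 cells, so it is not matched to the groups. The groups are small, and a single exon decides most of these counts.

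Sequence words, GC content and intron lengths were compared with those of frame-keeping exons and of other exons of the same genes. The words CTGT and CTGA, searched on the sense strand as DNA letters for the CUGU and CUGA that the study links to Sfpq, occurred 1.22 times per 100 nt in 164 frame-shifting exons, against 1.1 in 269 frame-keeping exons and 1.2 in the 1596 other internal exons of the same genes. By list the value for frame-shifting exons was 1.2, 1.15 and 1.2. At least 1 of these words lay in 66.5%, 49.4% and 75.1% of the exons of these sets, whose median lengths were 97, 63 and 118 nt. The third word, TGTA after any base, occurred 0.302, 0.212 and 0.217 times per 100 nt. Its value for frame-shifting exons was 0.217 in list 1, 0.271 in list 2 and 0.351 in list 3, so the lists spread more widely than these sets, and list 1 was level with the other internal exons. Among the kinds, exons of no protein-coding transcript had 1.78 CTGT or CTGA and 0.503 NTGTA per 100 nt, and wholly coding exons 0.93 and 0.157. Exons with a stop codon had 1.26 and 0.505, and 5′UTR exons 1.38 and 0.31. Median GC content was 49.5% in frame-shifting exons, 50% in frame-keeping exons and 50% in the other internal exons. Flanking introns had medians of 1742 nt upstream and 2088 nt downstream, against 2016 and 2046 nt for frame-keeping exons and 1431 and 1346 nt for the other internal exons. These values are given as a description, since neighbouring words and exons of a gene are not independent.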

How the data were processed

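RNA from P19 cells (3 SFPQ knockdown and 3 control samples) was sequenced by the authors. Cutadapt, Bowtie2, STAR and mm10 are named, without versions, in the submitters' processing notes. SpliceTrap, which estimates exon inclusion, is named for splicing in the study's methods. GEO's labels and the study's methods name different stranded library kits. The authors deposited 3 lists of event positions and type codes, with no count or other measured unit. The threshold for listing, the control samples behind each list and the depth are not given in the sources used here.

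List starts count from 0, because 433 of 439 cassette exons matched an annotated exon with 1 added and 0 of the 169 members did without it. Of the list rows, 2 with an unreadable start or end were left out, 1 of them a cassette exon, and repeats were counted once. Exons were compared with all GENCODE M21 transcripts. The host for reading frames was ranked by APPRIS, CCDS, basic tag, support level and coding length, and in all 97 hosts the first stop in frame was the annotated one. Shares have 95% Wilson intervals, which cover counting only. The 6 comparisons used two-sided Fisher's exact tests with Benjamini-Hochberg adjustment. Routines were tested on simulated data. No genome sequence was used, so splice sites and intron windows were not analysed here. Members and gene groups were chosen with earlier results of these data known. Genes named are those with an exon in 2 or 3 lists, with 2 or more exons, with both kinds of exon in more than 1 list (no gene), with the longest or shortest exon or in a gene group, and 10 each with the earliest shifts and the longest exons of no protein-coding transcript. Of the genes this rule names, 1 is not reported here. Others are said to be named after their values were seen. The software was scipy 1.17.1 and numpy 2.4.6 under Python 3.11.15, with matplotlib 3.10.9 for plots.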

Additional observations from a re-analysis of the deposited data

How the results depend on the processing

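Of 48 alternative values, 46 kept the direction and the side of the threshold of 0.05, stayed within 1.5 times a count or, for the untested word density, moved by less than the spread between lists (SD 0.158), although its sign changed without list 1. The other 2 were both in the share of exons in more than 1 list, whose difference between frame-shifting and frame-keeping exons was -3.03 to 0.806 percentage points when 1 list was left out (0.806 without list 1, Fisher's exact test, adjusted p = 0.865, and 0.333 without list 3, adjusted p = 1). The wholly coding difference was -47.8 to -42.8 points without 1 list, that for the 5′UTR 27 to 28.8, for NMD transcripts 13.5 to 17.5, for no protein-coding transcript 10.4 to 17.7 and for start codons 2.87 to 4.3. Counting 1 exon per gene, exact exon matches only, a 50% cover of the exon or basic transcripts changed no call. The basic tag was carried by 0 of 120 NMD transcripts, so that alternative gave no NMD value. Skipped coding exons that met the decay rule numbered 41 at 50 and at 55 nt and with the longest host, and 28 to 33 without 1 list. The difference in CTGT and CTGA words per 100 nt was 0.117, and -0.0304 (without list 1) to 0.16 without 1 list, an alternative chosen after the data were seen, as were 1 exon per gene for words (0.143) and gene groups without 1 list (5 to 7 genes). Motif windows with flanking intron were not run, for want of genome sequence. No paired analysis was possible because the lists hold the outcome of a comparison made beforehand and no values per sample. The lists carry no depth, so missed and wrongly listed exons cannot be told apart from absent and true ones.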
